A study of Mus musculus with 29 samples.

Results

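NADPH oxidases are membrane enzymes that pass electrons from NADPH to oxygen and so make superoxide or hydrogen peroxide. The 6 genes described here, Cybb, Cyba, Ncf1, Ncf4, Rac2 and Nox4, were taken as a list of symbols, mapped to the Ensembl identifiers of the count table, and they are 6 of its 56748 genes. Of the 6, 5 passed a filter of more than 10 counts in more than 10 of 28 samples, as did 12353 genes in all, and Ncf4 did not pass.

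The data are gene counts from bulk RNA sequencing of the mouse aortic arch, the curved first stretch of the aorta. Ercc1 encodes a subunit of a DNA repair endonuclease. Ercc1Δ/- mice carry a null allele and a truncated allele of it in every tissue, are F1 hybrids of C57BL6J and FVB and age early, and their wild-type (WT) littermates, which carry both functional alleles, were the controls. Mice of both sexes were killed at 6 weeks of age after ad libitum (AL) feeding, or at 22 weeks after AL feeding or dietary restriction (DR), which began at 7 weeks and stood at 30% less food from 9 weeks on. There were 5 samples in each group except the 22-week AL groups, which had 4 Ercc1Δ/- samples and 4 WT samples after the shallow sample 003 was left out.

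Cybb encodes the catalytic core of the phagocyte oxidase, which neutrophils and macrophages use against microbes. Cyba encodes the small membrane partner that both this core and NOX4 need. Ncf1 (the organizer), Ncf4 (a lipid-binding adaptor) and the GTPase Rac2 wait in the cytosol and join the core when the cell is activated. Nox4 encodes a core that is active without those cytosolic parts, releases mainly hydrogen peroxide and is the main oxidase core of vascular smooth muscle.

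In the GRCm39 build, Cybb (ENSMUSG00000015340) lies on the minus strand of chromosome X from 9301491 to 9354010, Cyba (ENSMUSG00000006519) on the minus strand of chromosome 8 from 123150422 to 123159706, and Ncf1 (ENSMUSG00000015950) on the minus strand of chromosome 5 from 134248907 to 134258479. Chromosome 15 holds Ncf4 (ENSMUSG00000071715) on its plus strand from 78128982 to 78146784 and Rac2 (ENSMUSG00000033220) on its minus strand from 78443367 to 78457429. Nox4 (ENSMUSG00000030562) lies on the plus strand of chromosome 7 from 86895304 to 87047918. Exons of Xk, Il17c and Gtf2ird2 overlap those of Cybb, Cyba and Ncf1 on the opposite strand by 304, 423 and 574 bases, and those of Gm63166, a gene outside the count table, overlap Rac2 by 86. The strand setting of the counting is not given in the sources used here, so reads from these shared bases may not be told apart. Reads were counted over whole genes, and the extent of overlap outside exons was not measured. Il17c had at most 1 count in any sample, and Gtf2ird2 averaged between 50.2 and 55.4 normalized counts in the 6 groups. Xk, in contrast, fell from 172 ± 7.36 (SD, n = 4) in WT to 101 ± 7.99 (SD, n = 4) in Ercc1Δ/- at 22 weeks on AL, the opposite direction to Cybb.

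The start regions of both catalytic cores and of their shared partner are shown because the phagocyte genes and Nox4 moved differently below. They are RefSeq sequences of the GRCm38.p6 build, a build other than that of the counts, from 250 bases before to 50 bases after the gene start, read 5′ to 3′ on the gene's own strand. Entries were found for Cybb, Cyba, Ncf1 and Nox4, and Ncf4 and Rac2 had none. Capitals mark, on either strand, GAGGAA, a core bound by PU.1, the myeloid transcription factor that Spi1 encodes, and a GC box, spelled GGGCGGG.
Cybb, chrX:9469275-9469574, minus strand: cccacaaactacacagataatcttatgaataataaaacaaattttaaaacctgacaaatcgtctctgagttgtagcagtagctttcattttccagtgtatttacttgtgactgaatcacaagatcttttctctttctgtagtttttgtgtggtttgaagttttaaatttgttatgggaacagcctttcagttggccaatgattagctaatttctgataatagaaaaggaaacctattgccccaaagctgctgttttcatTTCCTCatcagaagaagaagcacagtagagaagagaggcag
Cyba, chr8:122432891-122433190, minus strand: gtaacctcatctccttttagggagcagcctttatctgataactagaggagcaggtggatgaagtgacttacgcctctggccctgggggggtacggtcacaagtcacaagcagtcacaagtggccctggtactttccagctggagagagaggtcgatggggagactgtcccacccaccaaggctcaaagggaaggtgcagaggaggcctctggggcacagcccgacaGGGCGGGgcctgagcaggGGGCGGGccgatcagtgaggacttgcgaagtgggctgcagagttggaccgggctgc
Nox4, chr7:87246399-87246698, plus strand: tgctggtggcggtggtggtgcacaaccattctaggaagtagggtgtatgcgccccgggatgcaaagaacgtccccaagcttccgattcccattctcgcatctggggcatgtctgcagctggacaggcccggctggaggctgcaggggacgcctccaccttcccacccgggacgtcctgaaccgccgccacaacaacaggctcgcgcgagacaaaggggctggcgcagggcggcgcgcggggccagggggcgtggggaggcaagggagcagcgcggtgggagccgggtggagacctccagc
In the Cybb region the PU.1 core begins at base 10 after the start, read on the opposite strand, and 28.3% of all 32851 RefSeq start regions hold this motif on either strand. GC boxes stood in the regions of Cyba and Ncf1, as in 25.6% of all regions. The Cybb region was 35.3% G and C and the Nox4 region 68.3%. Of 4 further motifs searched on both strands, AGGAAGT occurred in the Nox4 region and in 9.35% of all regions. The others had no match in the 4 regions. They were GAGGAAGT, in which AGGAAGT and the PU.1 core overlap (3.20% of all regions), the related GGAAGTG (11.0%) and the TATA box spelled TATAAA (13.6%). These matches are letters in a window and were not tested as sites.

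The 28 libraries held between 921167 and 9616382 reads on genes, and the 2 shallowest groups by median were the Ercc1Δ/- DR and Ercc1Δ/- AL groups of 22 weeks. At 22 weeks every Ercc1Δ/- library of these was shallower than every WT library on the same diet. On AL they held 1294980 to 3855444 reads against 3903589 to 9616382, and on DR 921167 to 2572523 against 2660422 to 6124471. Mitochondrial shares on AL were 5.37% to 5.96% and 2.47% to 3.72%, and on DR they overlapped. Depth and genotype thus cannot be told apart at 22 weeks, except as far as fits thinned to a common depth allow. Levels are given as normalized read counts, that is counts scaled to a library of 3683502 reads. Ercc1 itself was lower in Ercc1Δ/- at 6 weeks (log2 fold change -1.41 ± 0.18 SE), at 22 weeks on AL (-0.96 ± 0.20) and on DR (-1.01 ± 0.18), as the labels say. All 10 smooth muscle markers passed the filter, with summed levels between 69982 and 175481 per sample, while the 11 neutrophil and 10 lymphocyte markers had none that did. Of the neutrophil markers Ly6g, Mpo and Camp had no count in any of the 28 samples, while Csf3r had 154 counts over them, Ltf 64 and S100a8 35. None of the 5 tested subunits was called for sex over the 28 samples, where 0.186% of all tested genes were.

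Per kilobase of exon, Nox4 was the most abundant of the 6 in each group and Cyba came next. The counts cover whole genes and may hold reads from introns, while the length is that of exons alone. Levels of different genes, and the ratio of Nox4 to Cybb, carry this mismatch. A comparison of the same gene or ratio between groups does not change with the length used. In WT at 22 weeks on AL the mean level per kilobase was 186 ± 16.2 (SD, n = 4) for Nox4 and 62.8 ± 7.16 for Cyba. The phagocyte genes were far lower on the same scale, with 6.81 ± 2.74 for Ncf1, 3.86 ± 1.14 for Cybb, 2.68 ± 1.08 for Ncf4 and 2.44 ± 1.35 for Rac2, and the ranges of these 4 genes overlapped. In these 4 samples Nox4 exceeded Cybb per kilobase by a ratio of 31.7 to 74.6 (median 51.8). In Ercc1Δ/- at 22 weeks on AL the ratio ran from 12.1 to 30.7 (median 16.8), below every WT sample of that age and diet.

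**Figure D1:**
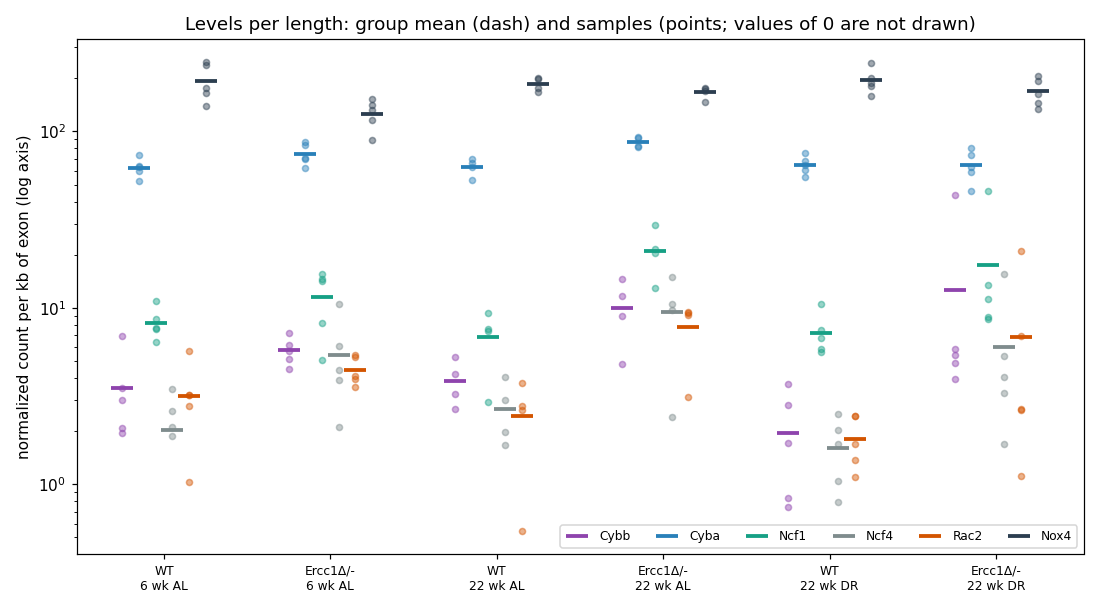
Normalized count per kilobase of exon (log axis) for the 6 subunits in the 6 groups, with each sample as a point and the group mean as a dash. Nox4 and Cyba lie above the other 4 in each group mean, and the 4 lower genes are higher in the Ercc1Δ/- means than in the WT means of the same age and diet.

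The genotype comparison at 22 weeks on AL asks how the aorta of the early-aging mice differs from that of normal littermates. The phagocyte genes Cybb, Ncf1 and Rac2, and the shared partner Cyba, were higher in Ercc1Δ/- and Nox4 was not called. A gene was called when its Benjamini-Hochberg adjusted p in edgeR's quasi-likelihood test was at most 0.05 and it changed at least 1.2-fold (0.263 on the log2 scale). By this rule 4 of the 5 tested subunits were called, beside 12.0% of all tested genes, and their median log2 fold change was 1.40 beside 0.03 over all tested genes.

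Cybb had 15.5, 24.4, 30.8 and 19.0 normalized counts in the WT samples and 52.3, 68.3, 27.9 and 84.6 in the Ercc1Δ/- samples. Only sample 013 of the Ercc1Δ/- group lay within the WT range. The log2 fold change was 1.40 ± 0.29 (SE, adjusted p = 0.00225), but the adjusted p was 0.103 when all 6 groups shared a fit and 0.150 after thinning to the shallowest library. Ncf1, the organizer, showed no overlap, with 10.7, 27.2, 34.2 and 27.7 in WT and 78.5, 108, 47.4 and 74.7 in Ercc1Δ/-. Its log2 fold change was 1.66 ± 0.32 (SE, adjusted p = 0.00153).

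Rac2 was low in WT, at 1.94, 13.4, 9.40 and 9.87, and reached 33.4, 33.6, 11.2 and 32.4 in Ercc1Δ/-. Sample 013 again fell within the WT range and the other 3 Ercc1Δ/- samples lay above it. The log2 fold change was 1.52 ± 0.38 (SE, adjusted p = 0.00984). Cyba changed least of the 4, from 122, 161, 152 and 144 in WT to 191, 212, 215 and 189 in Ercc1Δ/-, without overlap. Its log2 fold change was 0.49 ± 0.13 (SE, adjusted p = 0.0117), and the call was lost without Ercc1Δ/- sample 005 (adjusted p = 0.0518), without the count filter (0.0547) and after thinning (0.201). Every Ercc1Δ/- sample was above every WT sample for 2 of the 5 tested subunits, Cyba and Ncf1, and for 9.01% of all tested genes.

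Ncf4 had too few reads for the filter, with 0 to 33 counts per sample. Its normalized counts were 3.88, 6.91, 9.40 and 4.56 in WT and 24.3, 34.7, 5.58 and 22.4 in Ercc1Δ/-, so that again only sample 013 overlapped. The exact permutation test of the means gave p = 0.0857 for Ncf4 (two-sided, n = 4 and 4), where the smallest possible p is 0.0286. For Cybb and for Rac2 the exact permutation test gave p = 0.0571 (two-sided, n = 4 and 4), although edgeR called both. The exact permutation test gave p = 0.0286 for Cyba and for Ncf1 and 0.171 for Nox4 (two-sided, n = 4 and 4), all unadjusted. In a fit without the filter the log2 fold change of Ncf4 was 1.83 ± 0.39 (SE, adjusted p = 0.00106).

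Nox4 had 1686, 1498, 1423 and 1699 normalized counts in WT and 1465, 1433, 1247 and 1493 in Ercc1Δ/-. The ranges overlapped, and the log2 fold change was -0.18 ± 0.17 (SE, adjusted p = 0.531), with an approximate 95% interval from -0.51 to 0.15.

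**Figure D2:**
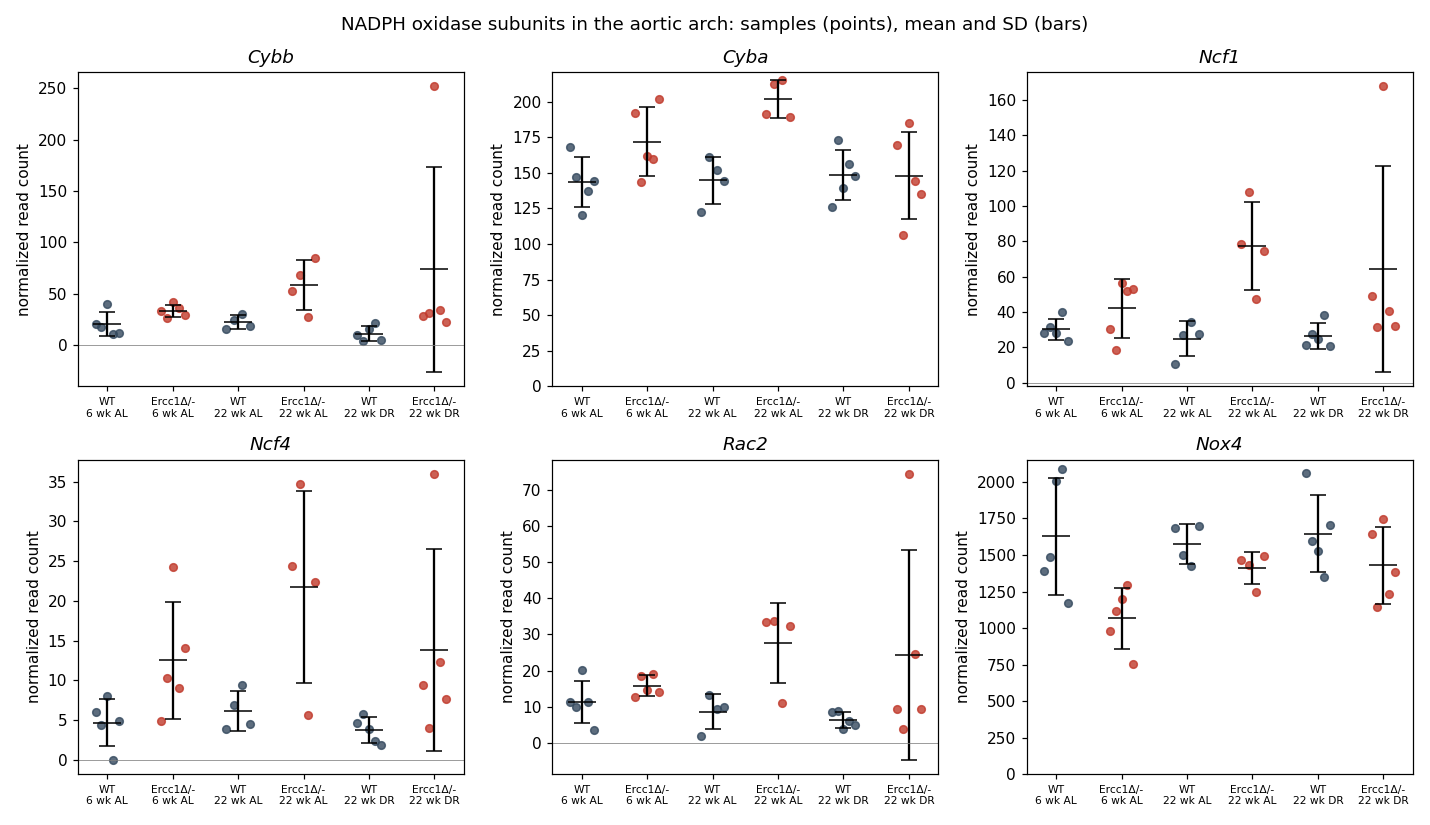
Normalized read counts of each subunit by group, with samples as points and the mean and SD as bars (linear axes, WT dark and Ercc1Δ/- red). Cyba and Ncf1 separate by genotype at 22 weeks on AL, and 1 sample of the Ercc1Δ/- DR group stands far above its group in Cybb, Ncf1, Ncf4 and Rac2.

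Markers of macrophages moved with these genes. Of 14 tested macrophage markers, 11 were higher in Ercc1Δ/- at 22 weeks on AL and none was lower (median log2 fold change 1.69), among them Mpeg1, a pore-forming protein (2.29 ± 0.21 SE), and the lysosomal glycoprotein Cd68 (2.09 ± 0.27). The summed level of the 16 markers ran from 979 to 1445 in WT and from 2084 to 4036 in Ercc1Δ/-. Of 10 smooth muscle markers, 8 were lower and none was higher, with the contractile myosin Myh11 at -0.96 ± 0.17 (SE) and calponin, Cnn1, at -0.77 ± 0.12. The paper counts Cd68 among the markers of macrophage-like smooth muscle cells. In bulk tissue, more cells of a type, more RNA per cell and other cells that carry the markers cannot be told apart. The part of these markers in the results was not tested.

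Set against the macrophage markers, the ranges of Cybb and Ncf1 overlapped between the genotypes at 22 weeks on AL. Cybb stood at 15.5 to 24.9 counts per 1000 macrophage marker counts in WT at 22 weeks on AL (median 19.6) and at 13.4 to 31.5 in Ercc1Δ/- (median 16.3). Ncf1 stood at 10.6 to 27.8 and at 22.8 to 27.8 on this scale, with medians of 24.9 and 25.2. Cyba, which cells outside the phagocyte lineage also express, ran from 105 to 164 in WT and from 52.6 to 103 in Ercc1Δ/-, without overlap. Nox4 per 1000 smooth muscle marker counts was 9.15 to 13.0 in WT and 11.7 to 20.9 in Ercc1Δ/-. These ratios are descriptions over 4 samples a group and were not tested.

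**Figure D3:**
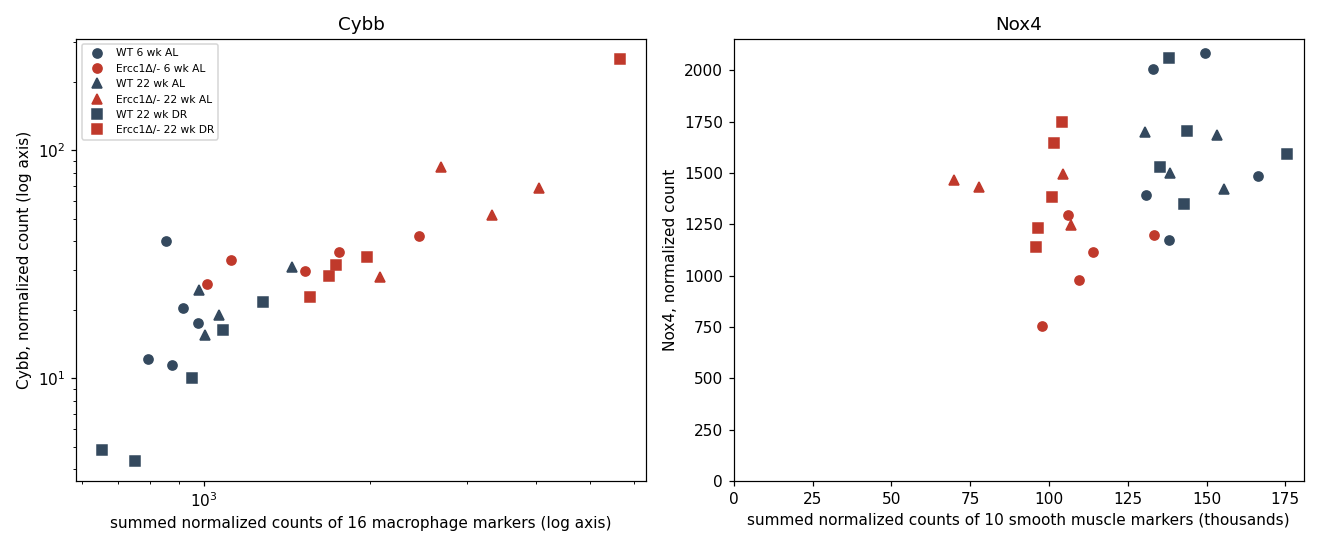
Left, Cybb against the summed level of 16 macrophage markers (both axes log). Right, Nox4 against the summed level of 10 smooth muscle markers (linear axes). Each point is a sample, red for Ercc1Δ/-, with circles for 6 weeks, triangles for 22 weeks on AL and squares for 22 weeks on DR. Cybb is higher where the macrophage sum is higher. At 22 weeks the Ercc1Δ/- samples have lower smooth muscle sums than WT, with Nox4 levels that overlap those of WT. At 6 weeks the smooth muscle sums of the genotypes overlap.

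Other genes of the oxidase family split at 22 weeks on AL. Of 15 listed, 8 were tested, and 1 was higher and 3 were lower in Ercc1Δ/-. Noxo1, the organizer of the NOX1 system, fell by 1.27 ± 0.22 (log2, SE, adjusted p = 0.000429), from 91.2 ± 9.17 (SD, n = 4) to 37.6 ± 9.27 normalized counts. Both Sh3pxd2a and Sh3pxd2b, scaffold proteins related to the organizers, were lower as well, at -0.68 ± 0.11 and -0.43 ± 0.12. Nox1, the core that Noxo1 serves, had 4 counts over the 28 samples, Noxa1 had 1 and Nox3 had none. The uncalled genes were Rac1 (0.20 ± 0.08), the Nox4 partner Poldip2 (0.22 ± 0.16), the chaperone Cybc1 (-0.09 ± 0.13) and the GTPase Rap1a (0.04 ± 0.12).

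Of 9 tested genes that signal to the phagocyte oxidase, 6 were higher and none was lower. They included Dock2, an exchange factor for Rac (1.80 ± 0.28), and Arhgdib, which holds Rac2 in the cytosol (1.09 ± 0.19), with the integrin chain Itgb2 (1.79 ± 0.36) and the exchange factor Vav1 (1.19 ± 0.35). Among 5 phagocyte transcription factors, Spi1 (1.31 ± 0.31) and Irf8 (1.16 ± 0.32) were higher, and Cebpb (0.56 ± 0.37) was not called. Of 11 tested genes that remove superoxide or peroxide, 2 were called, Gpx1 (0.43 ± 0.09) and Gpx3 (1.06 ± 0.32), both glutathione peroxidases and both higher. Prdx6 (0.46 ± 0.16) and Prdx5 (0.33 ± 0.14) were not called.

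At 6 weeks on AL the picture differed by gene. Nox4 was called lower in Ercc1Δ/- and none of the other 4 tested subunits was called, so that 1 of 5 tested subunits was called beside 1.71% of all tested genes. WT samples had 1390, 1483, 2005, 2086 and 1173 normalized counts of Nox4 and Ercc1Δ/- samples 979, 1114, 1196, 1293 and 754. The ranges overlapped, since the lowest WT sample lay below 2 Ercc1Δ/- samples. The log2 fold change was -0.59 ± 0.15 (SE, adjusted p = 0.0455). This call was lost in 7 of 10 fits that left out 1 sample, namely 009, 011 or 019 of WT and 002, 008, 015 or 027 of Ercc1Δ/-, with log2 fold changes from -0.71 to -0.49 over the 10 fits, and also without the count filter (adjusted p = 0.0637). The 2 highest WT values came from samples 011 and 019, whose libraries of 955589 and 1368274 counts were the smallest in that group. Nox4 stayed called after thinning to the shallowest library. The part of depth in this result was not tested further. Smooth muscle markers gave 2 of 10 lower and none higher in the same comparison.

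Cybb in the 6-week samples was 20.4, 17.5, 40.2, 11.4 and 12.2 in WT and 33.2, 26.1, 42.1, 36.0 and 29.7 in Ercc1Δ/-. All but 1 of the WT samples lay below the Ercc1Δ/- range, and the log2 fold change of 0.94 ± 0.30 (SE) had an adjusted p of 0.133. Rac2 (0.91 ± 0.40, adjusted p = 0.335), Ncf1 (0.51 ± 0.32, adjusted p = 0.555) and Cyba (0.24 ± 0.11, adjusted p = 0.384) were not called. The exact permutation test of the means gave p = 0.0397 for Ncf4 and 0.0238 for Nox4 (two-sided, n = 5 and 5), unadjusted. The exact permutation test gave p = 0.0635 for Cybb, 0.0952 for Cyba, 0.143 for Rac2 and 0.151 for Ncf1. In the fit without a filter the log2 fold change of Ncf4 was 1.19 ± 0.44 (SE, adjusted p = 0.290). Within the Ercc1Δ/- group, Ncf1 was 30.2 and 18.6 in samples 002 and 008 and 51.8 to 56.7 in the other 3. Those 2 samples also had the lowest macrophage marker sums of the group.

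From 6 to 22 weeks on AL, no subunit was called in either genotype. In WT 0 of 5 were called, beside 0.235% of all tested genes, and log2 fold changes lay between -0.15 (Ncf1) and 0.38 (Cybb). In Ercc1Δ/- 0 of 5 were called, beside 4.66%, although unadjusted p-values in edgeR were under 0.05 for 4 of them. Ncf1 had a log2 fold change of 1.00 ± 0.30 (SE, adjusted p = 0.0663), Cybb of 0.83 ± 0.28 (adjusted p = 0.0899), Rac2 of 0.82 ± 0.36 (adjusted p = 0.232) and Nox4 of 0.39 ± 0.16 (adjusted p = 0.187). Without sample 013, both Ncf1 and Cybb were called, with adjusted p of 0.0353 and 0.0294, and Ncf1 was also called without sample 015 (0.0458) or 027 (0.0386) and without the sex term (0.0488). Macrophage markers gave 8 of 14 higher with age in Ercc1Δ/-. The test of whether the genotype difference itself changed with age called 0 of 5 subunits, beside 0.842% of all tested genes. The largest such difference was that of Ncf1, 1.14 ± 0.45 (log2, SE, adjusted p = 0.318).

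**Figure D4:**
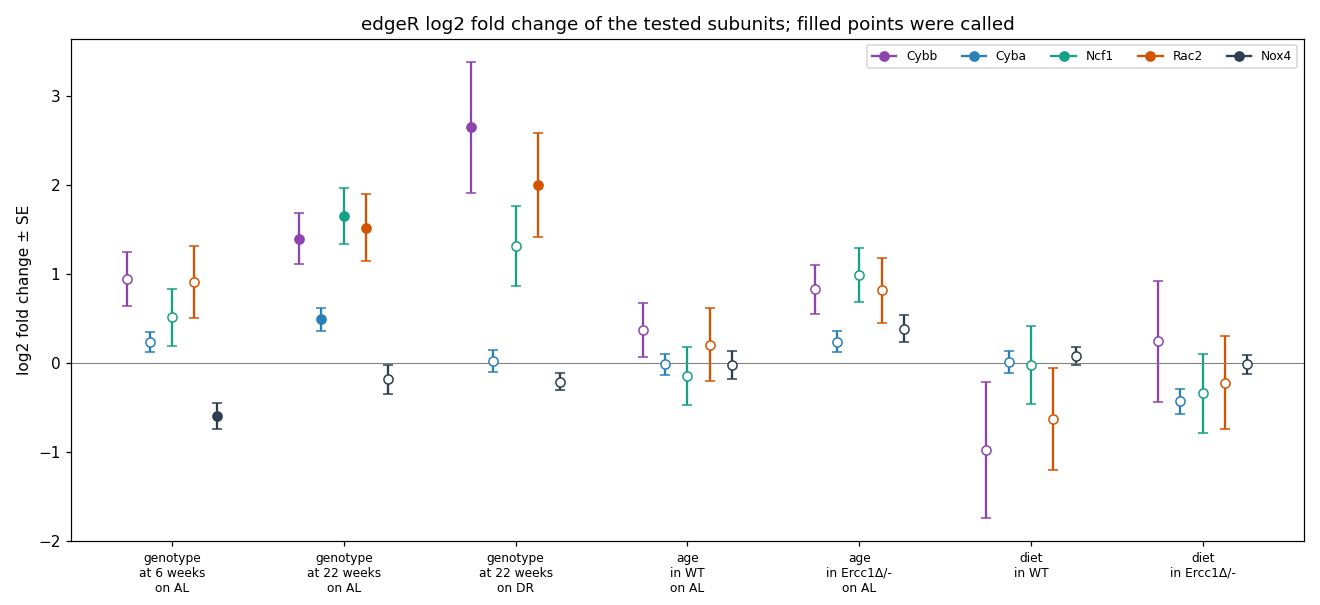
Log2 fold change with its SE from edgeR for the 5 tested subunits in 7 comparisons, with called values filled. Cybb, Cyba, Ncf1 and Rac2 are filled at 22 weeks on AL, Cybb and Rac2 at 22 weeks on DR, and Nox4 at 6 weeks.

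On DR, Cybb and Rac2 were called higher in Ercc1Δ/- and 1 sample stood far above its group. Sample 016 had 252 normalized counts of Cybb, while the other 4 samples of its group had 28.2, 31.5, 34.1 and 22.9 and the WT samples on DR had 10.0, 4.35, 16.3, 21.6 and 4.87. Even without sample 016 each Ercc1Δ/- value was above each WT value. The share of all tested genes that separate so on DR was not computed. The genotype difference of Cybb on DR was 2.65 ± 0.74 (log2, SE, adjusted p = 0.0308) with sample 016 and 1.34 ± 0.38 (adjusted p = 0.0251) without it. The Cybb call was lost without WT sample 007 (adjusted p = 0.0660), 010 (0.0575) or 028 (0.0797), without the count filter (0.0576) and after thinning (0.155). DESeq2 gave no adjusted p for Cybb in this comparison.

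Rac2 on DR was 8.69, 8.71, 3.91, 5.99 and 4.87 in WT and 9.41, 3.94, 74.4, 24.5 and 9.53 in Ercc1Δ/-. The groups overlapped through sample 014, which had the fewest counts of all 28. The log2 fold change of 2.00 ± 0.59 (SE, adjusted p = 0.0300) became 1.12 ± 0.50 (adjusted p = 0.166) without sample 016. The Rac2 call was also lost without WT sample 017 (adjusted p = 0.0698) or 028 (0.0704) or Ercc1Δ/- sample 022 (0.0599), without the filter (0.0918) and after thinning (0.186). Ncf1 was 21.4, 27.6, 24.7, 38.4 and 20.7 in WT and 49.4, 31.5, 168, 40.9 and 32.4 in Ercc1Δ/-, with a log2 fold change of 1.32 ± 0.45 (adjusted p = 0.0688), or 0.59 ± 0.29 (adjusted p = 0.224) without sample 016. Ncf1 was called by DESeq2 (adjusted p = 0.0113), in the fit of all 6 groups (0.0345) and without Ercc1Δ/- sample 022 or 029 (0.0488 for each). Together 2 of 5 tested subunits were called on DR, beside 13.0% of all tested genes, and 1 of 5 without sample 016, beside 10.3%. The exact permutation test of the means on DR gave p = 0.00794 for Cybb and 0.127 for Rac2 (two-sided, n = 5 and 5). The exact permutation test gave p = 0.0317 for Ncf1, 0.238 for Nox4 and 0.992 for Cyba, all unadjusted and with sample 016.

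Cyba showed no genotype difference on DR that could be called, at 126, 173, 139, 156 and 148 in WT and 169, 106, 185, 145 and 135 in Ercc1Δ/- (log2 fold change 0.02 ± 0.13 SE, approximate 95% interval -0.22 to 0.27). Nox4 ran from 1347 to 2058 in WT and from 1141 to 1749 in Ercc1Δ/- (-0.21 ± 0.10, adjusted p = 0.188). For Ncf4 the exact permutation test gave p = 0.0238 on DR (two-sided, n = 5 and 5, means 3.72 ± 1.63 and 13.8 ± 12.7 SD), 1 of 42 such tests over the 6 genes and 7 comparisons, unadjusted. In the fit without a filter its log2 fold change was 1.89 ± 0.48 (SE, adjusted p = 0.00424). Both results include sample 016, at 36.0 normalized counts of Ncf4 where the next sample had 12.3, and Ncf4 was not tested without it. Sample 014, at 3.94, lay within the WT range of 1.82 to 5.81.

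Sample 016 also stood apart in its leukocyte markers. Its macrophage marker sum was 5671, where the rest of its group had 1559 to 1977, and it held the highest neutrophil sum, 93.6, where its group's median was 4.09, and the highest lymphocyte sum, 67.2. Cybb per 1000 macrophage marker counts was 44.4 in this sample and 14.7 to 18.1 in the other 4. The WT samples on DR had 5.81 to 16.8 on this scale (median 10.5), beside a median of 17.2 in Ercc1Δ/- on DR. Macrophage markers gave 8 of 14 higher on DR, and 7 of 14 without sample 016. Smooth muscle markers gave 9 of 10 lower, and 8 of 10 without it. The part of leukocyte RNA in the values of sample 016 was not tested. Of the 9 tested signalling genes 2 were higher on DR and none was lower.

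The diet comparison asks whether less food shifted these genes at 22 weeks. In Ercc1Δ/- 0 of 5 tested subunits were called, beside 1.64% of all tested genes. Cyba came nearest. It was 191, 212, 215 and 189 on AL and 169, 106, 185, 145 and 135 on DR, with each DR sample below each AL sample. The share of all tested genes that separate so between the diets was not computed. The log2 fold change of Cyba was -0.43 ± 0.14 (SE, adjusted p = 0.111). Cybb had a log2 fold change of 0.25 ± 0.68 (adjusted p = 0.914), which turned to -0.94 ± 0.34 (adjusted p = 0.157) without sample 016. Without that sample Ncf1 stood at -0.997 ± 0.278 (adjusted p = 0.0681), Rac2 at -0.99 ± 0.43 (adjusted p = 0.259) and Cyba at -0.51 ± 0.14 (adjusted p = 0.0639), and still none was called. Nox4 differed by -0.01 ± 0.11 between the diets, with an approximate 95% interval from -0.22 to 0.20.

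Macrophage markers gave 3 of 14 lower on DR in Ercc1Δ/- and 6 of 14 without sample 016. In WT 0 of 5 subunits were called for diet, beside 1.30% of all tested genes, with Cybb at -0.98 ± 0.77 (SE) and Rac2 at -0.63 ± 0.58. The test of whether diet acted differently in the genotypes called 0 of 5, beside 0.0971% of all tested genes, and Cyba had the smallest p there (-0.44 ± 0.18, adjusted p = 0.498). The diet and genotype comparisons at 22 weeks share samples, as do the age and genotype comparisons on AL.

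Across the 28 samples Cybb, Ncf1 and Rac2 varied together, as a description of log2 CPM values. Pearson's r was 0.78 for Cybb with Ncf1, 0.78 for Cybb with Rac2 and 0.80 for Ncf1 with Rac2, and 0.69, 0.68 and 0.72 over the 27 samples without 016. Cyba was less close to Cybb (0.39) than to Ncf1 (0.65). Nox4 had r of -0.16 with Cybb, -0.09 with Ncf1, -0.35 with Cyba and 0.0018 with Rac2. With values centred within groups these became 0.23, 0.21, -0.20 and 0.45, while Cybb had 0.69 with Ncf1, 0.66 with Rac2 and 0.19 with Cyba. Without sample 016 the centred r was 0.39 for Nox4 with Rac2, 0.47 for Cybb with Rac2 and -0.07 for Cybb with Cyba. These samples differ in group and depth, which the points share.

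The 5 tested genes with the highest r to Cybb were Lyz2 (0.89), Laptm5 (0.88), Cd37 (0.88), Syk (0.87) and Csf2rb (0.86), over 28 samples. Lyz2, the lysozyme of macrophages and neutrophils, and Laptm5 are also on the list of macrophage markers. Syk is on the list of oxidase signalling. For Nox4 the 5 included Timp3 (0.84), an inhibitor of metalloproteases, the kinase Rock2 (0.83), Kpna4 (0.83) and Sema3d (0.82). With values centred within groups, r was between 0.77 and 0.85 for the genes of Cybb and between 0.71 and 0.87 for those of Nox4. These genes were picked by r in the same samples, and their r without sample 016 was not computed. For Cybb with Ncf1, the centred r was 0.50 without that sample.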

How the data were processed

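Aortic arch RNA of 29 mice was analysed in 6 groups. The authors made directional libraries, aligned reads with STAR 2.7.10a to mm39, removed duplicates with UMI-tools 1.1.2 and counted them with HTSeq 2.0.2 over whole genes, and deposited raw counts per gene without normalization. Lines of unassigned reads (12.6% to 18.7% of each sample) stayed out. Sample 003 (400410 counts) was left out, as in the study. Positions came from GENCODE M39 on GRCm39.

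Tests used R 4.3.3 and edgeR 4.0.16 (quasi-likelihood F test, robust, TMM, group and sex in the model) on the 12353 genes past the count filter. Genotype and age were fitted over the 18 AL samples, diet and genotype on DR over the 18 samples of 22 weeks. Each count was divided by its TMM-scaled library and multiplied by 3683502, the average library of tested genes. SE is the log2 fold change divided by the root of F, and approximate 95% intervals are 1.96 SE to each side. Group means of normalized counts were set against each other with exact permutation (two-sided, Python 3.11.15) 42 times. Correlations used log2 CPM. The 2 dispersion methods of edgeR, with several normalization settings, were compared in trial fits, and the current method was kept with the counts of called genes in view, because they came nearest to those of an earlier analysis. The other method is an alternative.

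The members and lists were chosen with earlier results of these data known. Named were all 6 members, the tested other oxidase genes, up to 4 genes of each other list with the smallest p at 22 weeks on AL, and the 5 genes most correlated with Cybb and Nox4. A few genes that this rule named are not reported here, but stay in the counts. Of the lists, the 4 of endothelial, fibroblast, fat and heart muscle markers gave 1, 0, 0 and 1 genes higher and 0, 4, 0 and 1 lower at 22 weeks on AL. Replicates within groups differed beyond counting noise, with a chi-square over its degrees of freedom of 2.35 to 21.5 in 56 pairs. Alternatives were DESeq2 1.42.0, RLE size factors, no filter, sample 003 added, no sex term, all 6 groups in the fit, thinning to 921167 counts and leaving out each sample. Thinning used draws without replacement in place of edgeR's own function, whose draws departed from counting error. The fit of the AL samples was tested on simulated data for genotype at 22 weeks, and the fit of the 22-week samples was not.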

Additional observations from a re-analysis of the deposited data

Results flagged for a closer look

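Over the 6 subunits and 6 groups, 36 sets of samples were checked for a single sample far from the others by Dixon's test, of which chance flags about 1 in 20, and 4 values stood out. Of these, 3 came from Ercc1Δ/- sample 016 on DR, where Cybb was 252 (next 34.1), Ncf1 168 (next 49.4) and Ncf4 36.0 (next 12.3) normalized counts. The fourth was Rac2 in Ercc1Δ/- sample 013 at 22 weeks on AL, at 11.2, where the nearest of the others was 32.4. Sample 013 held 1294980 counts, the fewest of its group, and the lowest macrophage marker sum of its group. The part of depth and of the macrophage share in these values was not tested.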

How the results depend on the processing

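No paired analysis was possible because no replicate number was shared between groups. At 6 weeks the count of called subunits went from 1 to 0 with no count filter, and ran from 0 to 1 when single samples were left out. At 22 weeks on AL it went from 4 to 2 after thinning to the shallowest library (Cybb and Cyba lost), stayed at 4 without the filter with Cyba lost and Ncf4 added, and ran from 3 to 4 over single samples left out. For age in Ercc1Δ/- it went from 0 to 1 without the sex term and ran from 0 to 2. For genotype on DR it went from 2 to 1 without the filter, where both Cybb and Rac2 lost their call and the 1 is Ncf4, and to 0 after thinning, and ran from 0 to 3, with 1 without WT sample 007, 010 or 017 or Ercc1Δ/- sample 016 and 0 without WT sample 028. In the other 5 comparisons no alternative called a subunit. Directions turned in values that were called in neither fit. For age in WT these were Rac2 with DESeq2 (-0.039), Nox4 without the filter (0.0044), Cyba (0.019) and Nox4 (0.034) with sample 003 and Cybb (-0.039) and Rac2 (-1.06) after thinning. For diet in WT they were Ncf1 with DESeq2 (0.050), with sample 003 (0.014), in the fit of all 6 groups (0.0076), after thinning (0.54) and with the earlier dispersion method (0.00042), Cyba without the filter (-0.013), with sample 003 (-1.6e-06) and after thinning (-0.076), Nox4 with sample 003 (-0.012) and Rac2 after thinning (0.79). Diet in Ercc1Δ/- turned for Nox4 without the sex term (0.027) and in the fit of all 6 groups (0.0033). Cyba for genotype on DR was -0.026 without the filter and -0.014 after thinning. For genotype by diet, Nox4 with sample 003 was 0.011 and Rac2 after thinning -1.13. Leaving out single samples turned Cyba (-0.12 to 0.063), Nox4 (-0.12 to 0.11), Ncf1 (-0.28 to 0.041) and Rac2 (-0.44 to 0.48) for age in WT, Ncf1 (-0.20 to 0.10) and Cyba (-0.057 to 0.10) for diet in WT, Nox4 (-0.11 to 0.039) and Cybb (-0.94 to 0.61) for diet in Ercc1Δ/-, Cyba (-0.060 to 0.10) for genotype on DR and Rac2 (-0.34 to 0.65) for genotype by diet. The cause was not tested. The earlier dispersion method and the lists without sample 016 were added after seeing the data. The way of drawing counts for thinning was also changed after its first results were seen. With the first draws, fewer subunits were called at 22 weeks on AL. Ncf4 never passed 33 counts and Rac2 never 37, which limits both.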

Other observations

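Sample 003, a WT sample of 22 weeks on AL that entered no comparison except as an alternative, had 4 counts of Cybb, 17 of Cyba, 1 of Ncf1, 202 of Nox4 and none of Ncf4 or Rac2 in a library of 400410. Scaled by library size alone this is 1858 normalized counts of Nox4 and 156 of Cyba.

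Other oxidase cores and their partners outside the tested genes were scarce. Duox1 had 110 counts over the 28 samples, Duoxa1 103, Duox2 78 and Duoxa2 7. Duox2 averaged 6.39 normalized counts in WT on DR and 2.27 in WT on AL at 22 weeks, and these values were not tested. The organizer gene Noxo1 was lower in Ercc1Δ/- on DR as well, by -0.74 ± 0.19 (log2, SE) against WT on DR.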
